A study of Mus musculus with 8 samples.

Results

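Voltage-gated potassium channels and their accessory subunits were described in the hippocampus of wild-type and Mbd2-/- mice. The members were the genes of the Kcna, Kcnb, Kcnc, Kcnd, Kcnf, Kcng, Kcnh, Kcnq, Kcns, Kcnv, Kcnab, Kcnip and Kcne series, chosen by symbol alone, and they were 51 of the 19201 genes in the table. One of them, Kcnd3os, is an antisense RNA and no channel. The imprinted antisense RNA Kcnq1ot1 was left out. In the study, Mbd2, a protein that binds methylated CG sites in DNA, was removed to ask how its loss changes gene expression in the hippocampus. Total RNA was depleted of ribosomal RNA and read as paired ends of 100 bases, in 4 libraries from wild-type mice on a C57BL/6 background and 4 from Mbd2-/- mice. All mice were 10 to 12 weeks old and were bred from heterozygous parents, and each library pooled the hippocampi of 2 mice. The Mbd2-/- allele is constitutive, so that every cell of the animal lacks Mbd2 from conception, and its exon 1 is still transcribed.

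These channels open when the membrane depolarises and let potassium leave the cell, which ends the action potential and sets how often a neuron can fire. A channel is a tetramer of pore-forming subunits. The Kcna (Kv1), Kcnb (Kv2), Kcnc (Kv3), Kcnd (Kv4), Kcnq (Kv7) and Kcnh (Eag, Erg and Elk) genes encode subunits that form working channels by themselves, while the Kcnf, Kcng, Kcns and Kcnv products are silent alone and modify Kv2 channels. Accessory subunits join from outside the pore: the Kvbeta proteins of Kcnab bind Kv1 channels, the calcium-binding KChIP proteins of Kcnip bind Kv4 channels, and the small membrane proteins of Kcne bind several pores. In the hippocampus, Kv4 channels carry the fast A-type current of dendrites, Kv1 channels sit along axons, Kv3 channels allow fast-spiking interneurons to fire at high rates, and Kv7 channels carry the M-current that holds back repeated firing.

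Because Mbd2 binds methylated CG sites, the 250 bases before an annotated start are shown for 4 members on which the results turn, with every CG in capitals. The sequences are from RefSeq on GRCm38.p6 (mm10), not the mm9 build of the expression data, and each runs 5′ to 3′ on the strand of its gene. Kcnd2 (chr6:21215096-21215345, plus strand) and Kcnc1 (chr7:46396218-46396467, plus strand) were lower in Mbd2-/- hippocampi, and Kcnab2 (chr4:152477550-152477799, minus strand) and Kcne2 (chr16:92292139-92292388, plus strand) were higher.
Kcnd2: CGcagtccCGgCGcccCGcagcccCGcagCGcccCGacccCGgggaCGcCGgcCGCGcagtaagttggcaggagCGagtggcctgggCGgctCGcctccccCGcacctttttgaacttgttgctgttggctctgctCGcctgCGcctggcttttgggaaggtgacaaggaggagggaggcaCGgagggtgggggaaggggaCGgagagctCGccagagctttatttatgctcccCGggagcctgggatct
Kcnc1: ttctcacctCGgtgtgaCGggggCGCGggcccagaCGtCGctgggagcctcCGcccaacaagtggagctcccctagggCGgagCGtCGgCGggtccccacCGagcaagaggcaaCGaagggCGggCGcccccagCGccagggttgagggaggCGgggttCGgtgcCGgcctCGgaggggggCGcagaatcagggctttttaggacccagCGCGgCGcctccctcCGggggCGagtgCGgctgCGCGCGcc
Kcnab2: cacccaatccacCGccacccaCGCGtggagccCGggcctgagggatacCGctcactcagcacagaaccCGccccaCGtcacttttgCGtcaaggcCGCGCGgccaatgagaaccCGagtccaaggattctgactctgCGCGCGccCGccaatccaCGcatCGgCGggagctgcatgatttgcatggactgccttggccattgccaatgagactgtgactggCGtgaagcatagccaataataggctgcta
Kcne2: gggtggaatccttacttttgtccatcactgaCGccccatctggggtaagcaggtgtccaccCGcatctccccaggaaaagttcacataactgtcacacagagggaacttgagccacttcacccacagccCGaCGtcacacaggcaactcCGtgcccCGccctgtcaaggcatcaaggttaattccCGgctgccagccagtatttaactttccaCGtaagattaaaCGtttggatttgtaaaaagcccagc
The Kcnd2 window holds 22 CG, the Kcnc1 window 30, the Kcnab2 window 20 and the Kcne2 window 9. Of the 51 members, 35 had a start in the RefSeq table, with 51 promoters in all, and these had a median of 9 CG in the 250 bases, against 6 over the 32851 promoters of the table. At least 10 CG were found in 47.1% of the 51 and in 37.8% of all promoters. The window shown for Kcnab2 is that of its most upstream start, and its other starts hold 5 and 3 CG, while the other start of Kcne2 holds 1. A CG reads the same on both strands, and its presence says nothing of its methylation or of Mbd2 binding, neither of which was analysed here. At the most upstream start, the 9 lower members with a sequence had a median of 14 CG, with Kcnf1 at 1 and Kcnc1 at 30, and the 22 members that were not called had a median of 13.5.

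Mbd2 itself had normalized counts of 295, 363, 371 and 354 in wild-type replicates 1 to 4 and of 244, 240, 339 and 217 in Mbd2-/- replicates 1 to 4, so that the genotypes overlapped. Its log2 fold change was -0.43 (adjusted p = 0.0174, limma). Since exon 1 is intact, these gene totals do not check the genotype labels. Mbd2-/- replicate 4 stood apart from the other Mbd2-/- libraries, from which it differed by 4.58 to 6.59 times the variance of counting, against 1.71 to 2.25 times among the other 3 and 1.49 to 2.45 times among wild-type libraries. The deviation of genes from the wild-type mean also ran with transcript length in Mbd2-/- libraries, with a Spearman's rho across 14046 genes of -0.49, -0.43 and -0.48 in replicates 1 to 3 and -0.10 in replicate 4, and of -0.06 to 0.06 in wild-type libraries. All 18 choroid plexus markers were higher and 11 of 13 thalamus markers were lower in Mbd2-/- hippocampi. The summed counts of the choroid plexus list were 25133 to 26817 in wild-type and 48215 to 54610 in Mbd2-/- libraries, those of the thalamus list 6226 to 6370 and 4216 to 4769. Markers of hippocampal pyramidal and granule neurons were abundant in every library, with sums of 105649 to 108002 and 114241 to 121638, and 3 of their 10 genes fell and 1 rose. The list median was -0.11, below 0 although the sum was higher in Mbd2-/- libraries, and the sum was carried by Camk2a, with means of 68037 and 81908. Of 8 oligodendrocyte markers 5 were higher, of 6 astrocyte markers 4, and of 9 tested striatum markers 1 was lower and 2 were higher. None of the markers in any list used here was at 0 in a library. In bulk tissue, fewer cells of a type and less RNA per cell cannot be told apart.

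Of the 51 members, 47 had a mean normalized count of at least 10 and were tested. The 4 that were not tested, Kcna10, Kcne3, Kcnq1 and Kcnv2, had means of at most 7.16 in either genotype. At an adjusted p under 0.05 (limma, Benjamini-Hochberg over 14504 genes), 17 members were lower in Mbd2-/- hippocampi and 2 were higher. That is 36.2% lower, where 10.0% of all tested genes were lower, and 4.26% higher, where 12.0% of all tested genes were higher. The log2 fold change (Mbd2-/- minus wild-type) was negative in 38 of the 47 members and in 50.0% of all genes, and its median was -0.17 in the members and 0.00 over all genes. In 22 members (46.8%) all Mbd2-/- libraries lay on one side of all wild-type libraries, against 23.6% of all tested genes. The decreases were small, from -0.41 to -0.14 on the log2 scale, which leaves 0.752 to 0.906 of the wild-type level. The median decrease of the 17 lower members, -0.27, was close to that of all 1450 lower genes, -0.26. Without Mbd2-/- replicate 4, 22 members were lower and 5 higher, and 17.6% and 17.9% of all genes were.

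**Figure D1:**
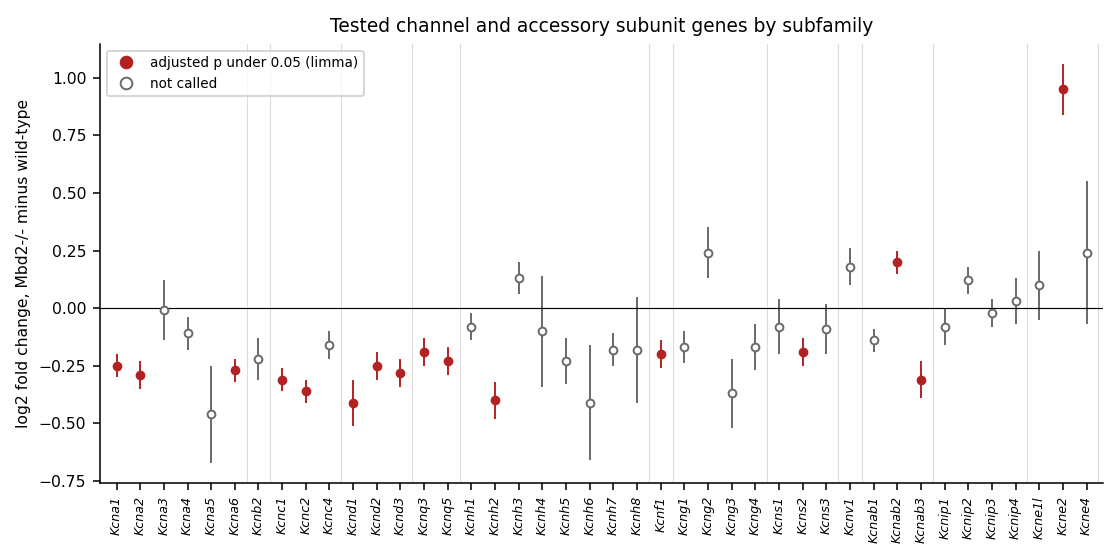
The log2 fold change (Mbd2-/- minus wild-type, log2 of normalized count + 1) is plotted for 42 of the tested channel and accessory subunit genes by subfamily, with bars of 1 standard error and filled points for an adjusted p under 0.05. Pore-forming genes, on the left, lie below 0 except Kcnh3, and Kcne2 lies far above the others.

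Most of the lower members were pore-forming. Of 27 tested pore-forming members, 14 were lower (51.9%) and 0 were higher, and 26 had a log2 fold change below 0 (median -0.23), or 25 by edgeR and DESeq2. By limma, 0 of them rose even at an unadjusted p under 0.05, and edgeR and DESeq2 also called 0 higher, although DESeq2 gave no adjusted p for Kcna5, Kcnh6 and Kcnh8. In the same libraries 11 of the 13 thalamus markers fell, and their part in the decrease of the channel genes was not tested. The summed counts of the pore-forming genes ran from 34894 to 36424 in wild-type and from 29746 to 32037 in Mbd2-/- libraries. Of 10 tested accessory genes, 1 was lower and 2 were higher, about the shares of all tested genes (10.0% and 12.0%), with a median of 0.07 that became -0.04 once the length trend was removed. Their summed counts were 17004 to 17373 in wild-type and 17585 to 19645 in Mbd2-/- libraries. Kcnab2 alone gave 10888 to 11241 and 11565 to 13518 of these counts. Of 9 tested modulatory genes, 2 were lower and 0 higher by limma, edgeR or DESeq2 (2 higher, Kcng2 and Kcnv1, at an unadjusted p under 0.05). The difference between these roles was not tested.

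**Figure D2:**
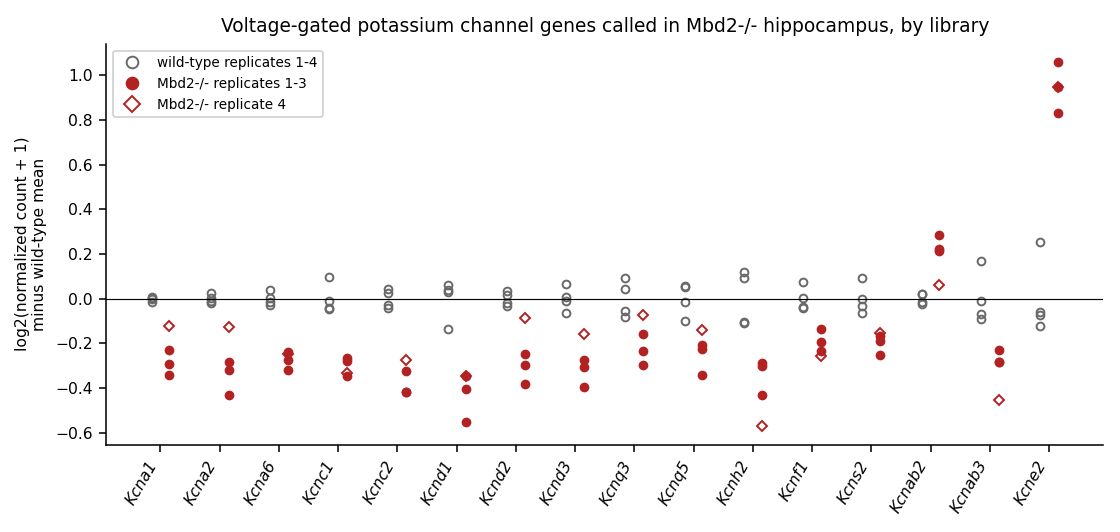
Each point is 1 library's log2(normalized count + 1) minus the wild-type mean of the gene, for 14 of the lower members and the 2 higher ones. Mbd2-/- replicate 4 (open diamonds) is the highest Mbd2-/- library in 8 of these 14 lower genes, and among the plotted genes the genotypes overlap in Kcnq3 only.

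The Kv1 genes encode axonal channels that open near the firing threshold and limit excitability. Kcna1 had normalized counts of 3500, 3513, 3468 and 3515 in wild-type replicates 1 to 4 and of 2857, 2984, 2761 and 3217 in Mbd2-/- replicates 1 to 4. Every Mbd2-/- library was below every wild-type library, with replicate 4 the closest, and the log2 fold change was -0.25 (SE, the standard error, 0.05, adjusted p = 0.00372, limma). Kcna2, whose product joins that of Kcna1 in axonal tetramers, had counts of 3080, 3129, 3102 and 3175 in wild-type and of 2504, 2567, 2313 and 2861 in Mbd2-/- libraries, again without overlap, and a log2 fold change of -0.29 (SE 0.06, adjusted p = 0.00280, limma). Kcna6 had counts of 1422, 1402, 1389 and 1458 against 1135, 1171, 1203 and 1194, and here replicate 4 lay among the other Mbd2-/- libraries (log2 fold change -0.27, adjusted p = 0.00165, limma). The ratio of Kcna1 to Kcna2 overlapped between the genotypes, with a mean log2 ratio of 0.16 ± 0.02 (SD, n = 4) in the wild-type and 0.21 ± 0.04 (SD, n = 4) in the Mbd2-/- group. Kcna3, which encodes a channel best known from lymphocytes, had means of 135 ± 9.61 and 136 ± 29.1 (SD, n = 4 each), with a log2 fold change of -0.01 and a 95% interval of -0.28 to 0.27. Kcna4, which encodes an inactivating Kv1 channel, was at 606 ± 38.2 and 560 ± 32.5 (log2 fold change -0.11, 95% interval -0.25 to 0.03). Kcna5 did not overlap, at 24.3 ± 3.27 and 17.5 ± 2.33, but its log2 fold change of -0.46 had a standard error of 0.21 (adjusted p = 0.125, limma). When the length trend was removed, Kcna1, whose longest transcript is 8970 bases, was no longer called (-0.11, adjusted p = 0.0696, limma), while Kcna2, at 3456 bases, was almost unmoved (-0.28, adjusted p = 0.00186, limma).

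The Kv2 genes encode the delayed rectifier of the cell body. Kcnb2, with means of 288 ± 15.4 and 247 ± 28.5 (SD, n = 4 each), had a log2 fold change of -0.22 that did not pass the test (adjusted p = 0.0715, limma). It passed without Mbd2-/- replicate 4 (-0.30, adjusted p = 0.00343, limma).

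Kv3 channels open and close fast, and several Kv3 genes are expressed strongly in fast-spiking interneurons. Kcnc1 had counts of 2206, 2198, 2431 and 2253 in wild-type and of 1785, 1892, 1871 and 1803 in Mbd2-/- libraries (log2 fold change -0.31, adjusted p = 8.18e-04, limma). Kcnc2 had counts of 1508, 1581, 1491 and 1564 against 1226, 1151, 1148 and 1270 (log2 fold change -0.36, adjusted p = 3.80e-04, limma). Both genes separated the genotypes, Mbd2-/- replicate 4 was the closest to wild-type in Kcnc2 but not in Kcnc1, and both calls held under every alternative and without any single library. Kcnc4, which encodes an inactivating Kv3 channel, did not overlap either, at 853 ± 34.9 and 767 ± 58.8 (SD, n = 4 each), but missed the threshold (log2 fold change -0.16, adjusted p = 0.0950, limma). Of 8 GABAergic interneuron markers, 2 were lower (Gad1 and Gad2, which encode the enzymes that make GABA, at -0.21 and -0.28) and 4 were higher (Pvalb, Sst, Vip and Npy). Pvalb, the marker of fast-spiking cells, had a log2 fold change of 0.37 (adjusted p = 0.0111, limma), in the direction opposite to Kcnc1 and Kcnc2. The list's summed counts were 9521 to 9832 in wild-type and 8714 to 9845 in Mbd2-/- libraries. The part of interneurons or of thalamic tissue in the Kv3 values was not tested.

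All 3 Kv4 genes were lower, where 10.0% of all tested genes were. Kcnd2, the main A-type channel of pyramidal cell dendrites, spans chr6:21165503-21679805 on the plus strand of mm9. It had counts of 1677, 1719, 1665 and 1745 in wild-type replicates and of 1387, 1432, 1307 and 1601 in Mbd2-/- replicates. The genotypes did not overlap, Mbd2-/- replicate 4 was the closest to wild-type, and the log2 fold change was -0.25 (SE 0.06, 95% interval -0.38 to -0.12, adjusted p = 0.00778, limma). Kcnd3, expressed more in interneurons, had counts of 1223, 1268, 1339 and 1287 against 1057, 1035, 972 and 1146 (log2 fold change -0.28, adjusted p = 0.00356, limma). The less abundant Kcnd1 had counts of 108, 124, 121 and 122 against 93.2, 80.5, 89.3 and 93.2. As reported, its decrease was the largest among called members (-0.41, SE 0.10, adjusted p = 0.0103, limma), just beyond Kcnh2 at -0.40. All 3 Kv4 genes stayed called when the length trend was removed, at -0.17, -0.16 and -0.33. In that fit Kcnab3 (-0.36) and Kcnh2 (-0.35) decreased more than Kcnd1. The log2 ratio of Kcnd2 to Kcnd3 was 0.41 ± 0.07 in the wild-type and 0.44 ± 0.04 in the Mbd2-/- group (SD, n = 4 each) and overlapped. The antisense RNA Kcnd3os overlaps the start of Kcnd3 on the other strand, and whether reads were counted by strand is not given in the sources used here, so that reads of the pair may not be separated there. It was listed at 14.2 ± 3.34 and 13.9 ± 3.70 counts (SD, n = 4 each), far below Kcnd3. Kcna6, Kcnab2, Kcnab3, Kcnh2 and Kcnq5 likewise overlap an annotated gene on the other strand.

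KChIP proteins bind Kv4 channels and raise their number at the membrane. Of their 4 genes, 0 were called by limma, edgeR or DESeq2 (0 also at an unadjusted p under 0.05, limma), and with 10.0% of all tested genes lower and 12.0% higher, a count of 0 among 4 does not set them apart. Kcnip2, the most abundant of them per length, had counts of 2454, 2022, 2184 and 2191 in wild-type and of 2517, 2374, 2463 and 2252 in Mbd2-/- libraries. The genotypes overlapped, and the log2 fold change of 0.12 had a 95% interval of -0.01 to 0.25. For Kcnip1, the interval was -0.25 to 0.10, for Kcnip3 (also known as DREAM, a repressor of transcription) -0.16 to 0.11, and for Kcnip4 -0.18 to 0.25. The 4 intervals include 0, and those of Kcnip1, Kcnip3 and Kcnip4 overlap the interval of Kcnd2 given above. The difference between the Kv4 and the KChIP genes was not itself tested. Without Mbd2-/- replicate 4, Kcnip2 was called higher (0.15, adjusted p = 0.0273, limma).

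**Figure D3:**
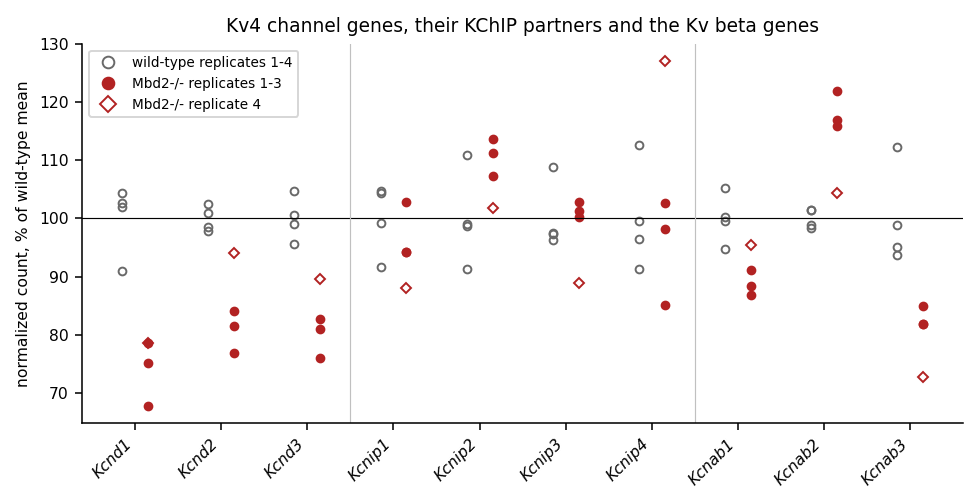
Normalized counts in percent of the wild-type mean are shown per library for the Kcnd, Kcnip and Kcnab genes, with wild-type libraries in grey. All Mbd2-/- points of Kcnd1, Kcnd2 and Kcnd3 lie below the wild-type points, those of the Kcnip genes overlap them, and Kcnab2 and Kcnab3 separate in opposite directions.

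The Kv7 genes encode the subunits of the M-channel. Kcnq3 had counts of 1265, 1159, 1307 and 1181 in wild-type and of 1000, 1098, 1044 and 1165 in Mbd2-/- libraries, and was the sole lower member whose genotypes overlapped (-0.19, SE 0.06, adjusted p = 0.0372, limma). Kcnq5 had counts of 833, 928, 926 and 883 against 762, 772, 703 and 810 and did not overlap (-0.23, SE 0.06, adjusted p = 0.0152, limma). These calls depended on single libraries. Kcnq3 was not called without any one of Mbd2-/- replicates 1, 2 and 3 or of wild-type replicates 1, 3 and 4 (adjusted p = 0.0608 to 0.129, limma), and Kcnq5 was not called without wild-type replicate 2 (0.0511) or 3 (0.0572). With the length trend removed, Kcnq5, whose longest transcript is 6975 bases, was at -0.11 (adjusted p = 0.177, limma), while Kcnq3, at 2622 bases, was at -0.23 (adjusted p = 0.0178, limma). Kcnq1, a channel of heart and epithelium, had means of 7.16 and 6.40.

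Of the 8 Kcnh genes, 1 was lower, a share near the 10.0% of all tested genes. It was Kcnh2, which encodes the Erg channel that shapes repolarisation in the heart and firing in neurons. It had counts of 459, 392, 450 and 393 in wild-type and of 313, 346, 343 and 284 in Mbd2-/- libraries. The genotypes did not overlap, with Mbd2-/- replicate 4 the lowest, and the log2 fold change was -0.40 (SE 0.08, adjusted p = 0.00321, limma). Kcnh3, an Elk channel of the forebrain, was the exception among pore-forming genes, with means of 1286 ± 76.9 and 1414 ± 126 (SD, n = 4 each) and a log2 fold change of 0.13 (95% interval -0.01 to 0.28), and it was called higher without Mbd2-/- replicate 4 (0.18, adjusted p = 0.0186, limma). Kcnh1, which encodes the Eag channel, was at 1046 ± 16.9 and 995 ± 75.5, with a 95% interval of -0.20 to 0.05. Kcnh7, another Erg gene, did not overlap at 463 ± 17.8 and 410 ± 30.0, and Kcnh5, another Eag gene, was at 224 ± 11.9 and 193 ± 29.6. Neither passed the test (adjusted p = 0.0754 and 0.128, limma), and both did without Mbd2-/- replicate 4 (0.0119 and 0.0126). Kcnh4, Kcnh6 and Kcnh8 had means of 14.6 to 23.1 counts in each genotype.

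Silent subunits do not reach the membrane as channels of their own and change Kv2 channels they join. Kcnf1 had counts of 1019, 968, 941 and 940 in wild-type and of 845, 823, 880 and 808 in Mbd2-/- libraries (log2 fold change -0.20, SE 0.06, adjusted p = 0.0162, limma). Kcns2 had counts of 761, 683, 713 and 697 against 636, 599, 625 and 642 (-0.19, SE 0.06, adjusted p = 0.0311, limma). Both separated the genotypes, by a small gap. Both were lost with the length trend removed (-0.14, adjusted p = 0.110, and -0.13, adjusted p = 0.114, limma). Kcnf1 was lost without Mbd2-/- replicate 2 (0.0539) or wild-type replicate 1 (0.0635), and Kcns2 without Mbd2-/- replicate 1 or 2 or wild-type replicate 1, 3 or 4 (0.0574 to 0.107, limma). Kcng2, the most expressed of these genes per length on an annotated model of 705 bases, had counts of 502, 448, 514 and 517 in wild-type and of 604, 526, 754 and 487 in Mbd2-/- libraries. Replicates 1 to 3 were above every wild-type library and replicate 4 was among them, and the log2 fold change of 0.24 did not pass the test (adjusted p = 0.120, limma). Without replicate 4 it was 0.33 (adjusted p = 0.0110, limma), and with the replicate block it passed at 0.0496. With the length trend removed it was -0.07 (adjusted p = 0.610, limma), a value that rests on that 705-base model of 1 exon. Kcng3 had a log2 fold change of -0.37 (adjusted p = 0.0779, limma) and passed with the replicate block (0.0384) and without Mbd2-/- replicate 4 (-0.48, 0.00987). Kcng1, at 312 ± 17.3 and 278 ± 15.7 (SD, n = 4 each), did not overlap and was not called, and Kcng4, at 201 ± 11.1 and 180 ± 29.0, was called only without Mbd2-/- replicate 3 (-0.27, adjusted p = 0.0440, limma). Kcnv1, a silent subunit of the forebrain, was at 495 ± 43.6 and 563 ± 50.7 (log2 fold change 0.18, adjusted p = 0.104, limma), and with the length trend removed it was called higher (0.24, adjusted p = 0.0259, limma). Kcns1 and Kcns3 had 95% intervals of -0.33 to 0.17 and -0.33 to 0.14.

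Of the 3 Kvbeta genes, 1 was higher, 1 was lower and 1 was not called, where 12.0% of all tested genes were higher and 10.0% lower. Kcnab2, the most expressed member per length (normalized count per kb 2825 ± 47.3 in wild-type, SD, n = 4), encodes a Kvbeta protein that helps Kv1 channels reach the axon. It had counts of 10888, 11233, 11241 and 10951 in wild-type and of 12948, 12844, 13518 and 11565 in Mbd2-/- libraries, and although replicate 4 was the lowest Mbd2-/- library, the genotypes did not overlap (log2 fold change 0.20, SE 0.05, adjusted p = 0.00944, limma). Kcnab3 had counts of 321, 272, 283 and 268 against 234, 243, 234 and 208 (-0.31, SE 0.08, adjusted p = 0.0134, limma), a call that was lost without wild-type replicate 1 (-0.26, adjusted p = 0.0547, limma). Kcnab1, whose product gives Kv1 channels fast inactivation, was at 1869 ± 80.9 and 1690 ± 69.7 (SD, n = 4 each), a log2 fold change of -0.14 (adjusted p = 0.0605, limma) that passed without Mbd2-/- replicate 4 (-0.17, adjusted p = 0.00658, limma). The log2 ratio of Kcnab1 to Kcnab2 was -2.55, -2.51, -2.67 and -2.55 in wild-type replicates and -2.97, -2.92, -3.06 and -2.70 in Mbd2-/- replicates. It was thus lower by a mean of 0.34 in Mbd2-/- libraries without overlap, and it was the sole one of 8 ratios examined that did not overlap. Removing the length trend left Kcnab2 at 0.23 (adjusted p = 0.00245, limma) and Kcnab3 at -0.36 (adjusted p = 0.00442, limma).

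Kcne2 had the largest change of all tested members. Its product is a small subunit of several potassium channels and is found on the apical membrane of the choroid plexus epithelium, the tissue that secretes cerebrospinal fluid. Counts were 97.4, 78.2, 74.8 and 77.5 in wild-type replicates 1 to 4 and 171, 146, 158 and 158 in Mbd2-/- replicates 1 to 4. All Mbd2-/- libraries were above all wild-type libraries, replicate 4 included, and the log2 fold change was 0.95 (SE 0.11, 95% interval 0.72 to 1.18, adjusted p = 4.71e-05, limma). The gene spans chr16:92292634-92298374 on the plus strand of mm9. The 18 choroid plexus markers, a list without Kcne2, had a median log2 fold change of 0.82, and none of them was at 0 in a library. Ttr, the carrier of thyroid hormone in cerebrospinal fluid, changed by 1.32, the folate receptor gene Folr1 by 1.14 and Kl, which encodes klotho, by 0.56. The change of Kcne2 lay between those of Kl and Folr1. The part of the amount of choroid plexus tissue in the Kcne2 value was not tested. The other Kcne genes were scarce: Kcne1l was at 50.9 ± 4.90 and 54.7 ± 8.21, Kcne4 at 12.3 ± 4.37 and 14.6 ± 4.04 (SD, n = 4 each), and neither was called. Kcne3 was at 1.02 and 3.18 counts, too few to test. Kcnq1, a pore partner of Kcne2 in epithelia, was also too scarce to test, as given above.

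**Figure D4:**
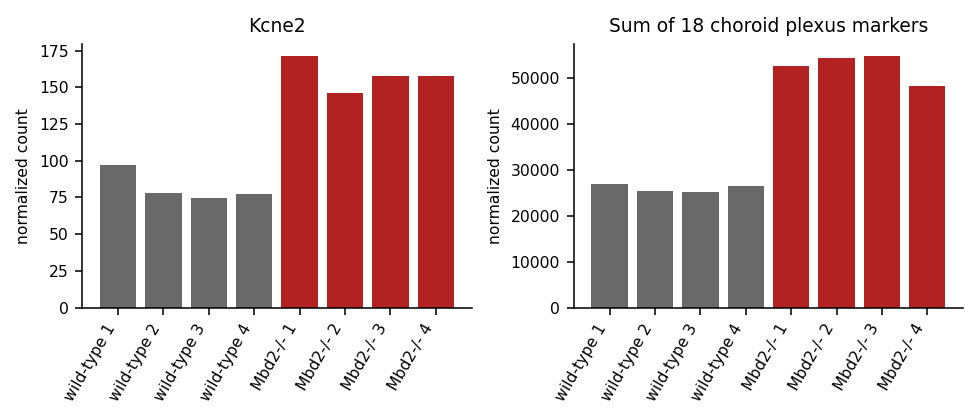
Bars give the normalized count of Kcne2 (left) and the summed normalized counts of 18 choroid plexus markers (right) in each of the 8 libraries, from 0. Both are higher in all 4 Mbd2-/- libraries, with Kcne2 at 146 to 171 against 74.8 to 97.4.

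Members with longer transcripts tended to have lower log2 fold changes, as did genes at large. The Spearman's rho of log2 fold change with the longest annotated transcript was -0.45 across the 45 tested members with a length and -0.46 across 14046 tested genes, a description across genes, which share the same libraries. The longest transcript had a median of 5281 bases in the lower members, 3362 in the members not called and 2806 in the 2 higher ones, against 3183 over all tested genes. When each library's trend on length was removed, 12 of the 17 lower members were still called, where 6.75% of all genes were lower (10.0% as reported). All 17 kept a negative log2 fold change, and the median of the members was -0.12. Kcna1, Kcnf1, Kcnq5 and Kcns2 were among those that were lost. Of the pore-forming genes, 11 of the 25 with a length remained lower, where 6.75% of all genes were, and 23 of 25 were negative. Across the libraries, the median deviation of pore-forming genes from the wild-type mean was -0.29, -0.23, -0.24 and -0.14 in Mbd2-/- replicates 1 to 4, and that of all members was -0.20, -0.13, -0.20 and -0.14. Of 38 members with a mean of at least 100 counts 17 were lower, and of 9 members with a mean of 10 to 100 counts 0 were lower by limma or edgeR (2 at an unadjusted p under 0.05, Kcna5 and Kcng3, limma), and by DESeq2, which gave no adjusted p for 5 of them, 0 of the other 4. With 10.0% of all tested genes lower, 0 of 9 is near the share of all genes. The standard errors of these 9 were 0.15 to 0.31 against 0.05 to 0.10 in the lower members.

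**Figure D5:**
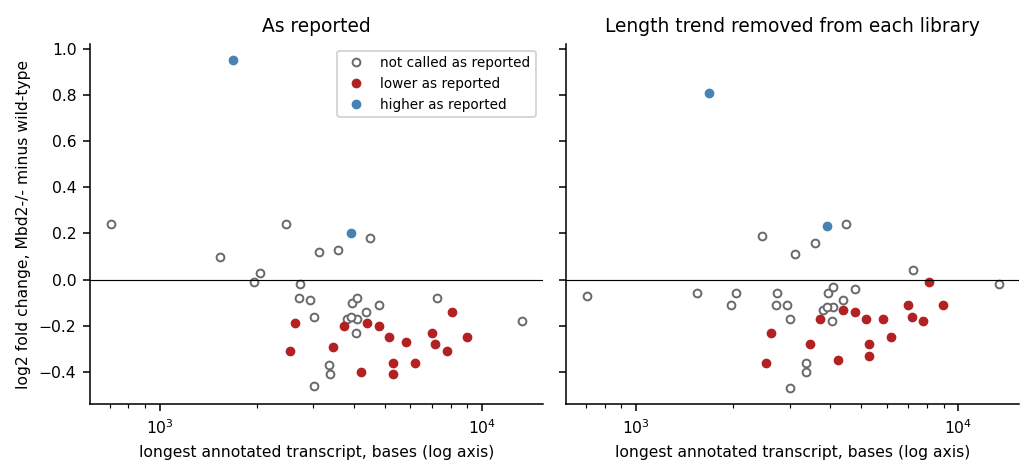
The log2 fold change (Mbd2-/- minus wild-type) of the tested members with a length is plotted against the longest annotated transcript (bases, log axis), as reported on the left and with the length trend of each library removed on the right. Lower members (red) stay below 0 on both sides, and Kcna1 moves from -0.25 to -0.11.

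Proteins that hold Kv channels in place were looked at in a list of 19 partner genes, all of which were tested. Of these, 8 were lower (Dpp10, Amigo1, Adam22, Adam23, Cntnap2, Cntn2, Akap5 and Nedd4l) and 2 were higher, with a list median of -0.04, where 10.0% of all tested genes were lower and 12.0% higher. The share of higher partner genes was thus near that of all genes. Adam22, a receptor that anchors Kv1 channels near presynaptic terminals, had counts of 3624, 3492, 3568 and 3502 in wild-type and of 2559, 2706, 2515 and 3102 in Mbd2-/- libraries (log2 fold change -0.39, adjusted p = 4.94e-04, limma). Cntnap2, which together with Cntn2 gathers Kv1 channels beside the node of Ranvier, had counts of 1463, 1527, 1498 and 1527 against 1276, 1217, 1179 and 1222 (-0.30, adjusted p = 8.75e-04, limma). Neither gene overlapped between the genotypes. Akap5 did overlap, and its call (-0.23, adjusted p = 0.0435, limma) was lost by DESeq2 (0.0543), without a filter on low counts (0.0547), with the length trend removed (0.200) and without any one library other than Mbd2-/- replicate 4 (0.0839 to 0.122). Cntn2 was at -0.22, Amigo1, an auxiliary subunit of Kv2 channels, at -0.26, and Dpp10, an auxiliary subunit of Kv4 channels, at -0.26. Dpp6, the more abundant Kv4 auxiliary gene, had means of 4607 ± 94.9 and 4233 ± 181 (SD, n = 4 each) and did not overlap, but missed the threshold (-0.12, adjusted p = 0.0714, limma). The scaffold gene Dlg4 was higher (0.17, adjusted p = 0.0131, limma), a call that was lost without Mbd2-/- replicate 2 (0.0535) or wild-type replicate 4 (0.0526). Dpp10 was not called without Mbd2-/- replicate 2 (0.0650) or wild-type replicate 2 (0.0673), Adam23 without Mbd2-/- replicate 2 or wild-type replicate 2 or 3 (0.0549 to 0.0637), and Cntn2 without replicate 1 of either genotype or wild-type replicate 3 (0.0548 to 0.0590). Of the list, 5 genes were lower without Mbd2-/- replicate 2 or wild-type replicate 2 or 3, where 6.47%, 7.27% and 6.05% of all genes were. With the length trend removed, Dpp10, Adam22, Cntnap2 and Nedd4l remained lower. Vapa, which links Kv2 channels to the endoplasmic reticulum, was added as lower (-0.17, adjusted p = 0.0340, limma), but Vapb was called higher (0.16, adjusted p = 0.0213, limma). In that fit 5 partner genes were lower and 4 higher, where 6.75% of all genes were lower and 8.04% higher.

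Of 40 genes of inward rectifier, two-pore-domain and calcium- or sodium-activated channels, 34 were tested, 9 were lower and 5 higher, and the median log2 fold change was -0.04. Over all tested genes, 10.0% were lower and 12.0% higher, and the higher count of these channels was near that share. One of the higher genes, Kcnj13 (0.79, adjusted p = 1.67e-04, limma), is also among the 18 choroid plexus markers. With the length trend removed, 5 were lower and 7 higher, where 6.75% of all genes were lower and 8.04% higher. Leaving out Mbd2-/- replicate 2 or wild-type replicate 2 gave 4 lower genes, where 6.47% and 7.27% of all genes were lower. Leaving out wild-type replicate 1 or 4 gave 5, where 5.98% and 6.22% were. Without Mbd2-/- replicate 1 or 2 or wild-type replicate 1, 2 or 3, 3 were higher, with 8.07% to 9.51% of all genes higher. The summed counts of these genes were 17876 to 18139 in wild-type and 17386 to 18495 in Mbd2-/- libraries and overlapped. The difference between them and the voltage-gated genes was not tested.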

How the data were processed

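RNA of 4 wild-type and 4 Mbd2-/- hippocampal libraries was analysed. Duplicated reads were removed by the authors, STAR was used for alignment to mm9 and DESeq2 for the study's own comparison. Versions and the tool that counted reads on genes are not given in the sources used here. The deposited signal is a normalized count: for every gene, the authors divided its reads by the size factor of the library. Columns with the authors' own comparison (mean, fold change, error, statistic and p-values) were not used. Columns named with K were read as the Mbd2-/- libraries, the group besides control.

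Dividing each library by its smallest value gave whole reads in 100% of values (within 0.01 read), 8087750 to 23790825 per library. Totals speak to counting error only, not to the spread between pools. Precision is set by the spread between pools of 2 mice. The p-values of limma set the genotype difference against that spread, moderated across genes.

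Genes with a mean of at least 10 normalized counts (14504 of 19201) entered the test, for which limma 3.58.1 (R 4.3.3, mean-variance trend, robust) was run on log2 values with a pseudocount of 1. Calls were made where the p adjusted by Benjamini-Hochberg was under 0.05. A fold change on this scale understates that of scarce genes. Values after ± are SDs. Alternatives were edgeR 4.0.16 and DESeq2 1.42.0 on recovered reads, TMM scaling, pseudocounts of 0.5 and 5, no filter, a filter of 50, a replicate block, removal of a length trend, and leaving out each library. On recovered reads, edgeR called 1809 genes higher and 1422 lower, DESeq2 1656 and 1332, and limma as reported 1735 and 1450. Lengths and coordinates came from GENCODE vM1 on mm9, which held 49 of the 51 members (all but Kcnb2 and Kcnh8), and promoters from RefSeq.

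The members, gene lists and tests were chosen with earlier results of these data known. Values in each library were to be given for every called member, Kcnd2, Kcne2 and the most expressed member of each role. Other members follow by means or ranges. The partner and marker genes named beyond the called ones, and the per-library values of 2 partners, were chosen after their values were seen. Results for some genes of these lists are not reported here by name.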

Additional observations from a re-analysis of the deposited data

Results flagged for a closer look

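Within a genotype, a library was singled out where its gap to the nearest of the other 3, divided by the range of all 4, was above Dixon's 95% critical value for 4 samples. Of 88 tests (44 genes in 2 genotypes, Mbd2 included), 4 passed, and chance alone marks about 1 in 20. In Kcnc4, wild-type replicate 3 was the highest at 904 normalized counts (ratio 0.838) and Mbd2-/- replicate 4 the lowest at 678 (0.946). In Kcne2, wild-type replicate 1 was the highest wild-type library at 97.4 (0.846), still below all Mbd2-/- libraries. In Kcnip3, wild-type replicate 2 was the highest at 1147 (0.907).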

How the results depend on the processing

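Over the 9 alternatives that kept all 8 libraries, 12 to 17 members were lower and 2 or 3 higher, and no called member changed sign. Of all genes, 6.75% to 11.9% were lower and 8.04% to 14.2% higher in these fits. Removing the length trend gave 12 lower members, a median of -0.12 (all members) and 5 lower and 4 higher partner genes, and left 5 lower and 7 higher genes among the other potassium channels. In that fit 6.75% of all genes were lower and 8.04% higher. Leaving out 1 library gave 12 to 22 lower members, 2 to 5 higher members and a median of -0.20 to -0.16. It gave 5 to 9 lower and 0 to 3 higher partner genes, and 4 to 10 lower and 3 to 5 higher other potassium channels. Of all genes, 5.98% to 17.6% were then lower and 8.07% to 17.9% higher. The highest member counts, 22 and 5, came without Mbd2-/- replicate 4, where all genes also had more calls (2596 higher, 2559 lower). Mbd2 ranged from -0.56 to -0.35 and was not called without Mbd2-/- replicate 1 or 2 or wild-type replicate 3 (adjusted p = 0.0542, 0.0579 and 0.0625, limma). In 10 of the 17 lower members and both higher ones the call held under every alternative and without each library in turn. The cause of these shifts was not tested.

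Replicate numbers did not pair the samples: deviations of same-numbered libraries correlated at -0.10, -0.06, 0.07 and 0.04. The replicate block gave 17 lower and 3 higher members. It added Kcng3 (lower) and Kcng2 (higher), 16 of the 17 lower calls and both higher calls held, and no other member changed its call.

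With 4 pools for each genotype, the scarce members could not show changes as small as those of the abundant ones, and levels near 10 counts rest on few reads.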
